A study of Mus musculus with 4 samples.

Results

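The genes described here are 36 genes of glycolysis and of the transcriptional response to low oxygen, measured in mouse embryonic stem cells with and without silencing of Ogt. They were chosen by name from a list of 37 symbols in which Pkm2 and Pkm are one gene, and all 36 were found among the 20723 gene symbols of the deposited table. The 36 genes hold 55 probe sets, and where a gene had several, the one with the highest mean over the arrays was used. The data are 4 one-colour arrays of E14, a mouse embryonic stem cell line derived from Ola129 mice and kept on gelatin in 15% serum with leukemia inhibitory factor. The 2 esiOgt samples were transfected for 48 h with esiRNA directed at Ogt, and the 2 esiGFP samples with esiRNA directed at GFP. An esiRNA is an enzymatically cut mixture of many short RNAs against a single transcript. All 4 samples were thus transiently transfected cells of 1 line, and silencing was partial.

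Glycolysis splits glucose into pyruvate in the cytosol and yields a little ATP at each pass. Mouse embryonic stem cells depend heavily on it and send much of the pyruvate to lactate. Most steps have several isoenzymes, which are encoded by separate genes and differ in tissue use and regulation. The same genes are among the best known targets of HIF-1, a transcription factor whose alpha subunit is hydroxylated by the Egln enzymes when oxygen is present and is then destroyed. Ogt encodes the enzyme that puts O-GlcNAc, a single sugar made from a branch of glycolysis, on nuclear and cytosolic proteins, and phosphofructokinase is among its known protein substrates.

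Promoter windows, the 250 bases before an annotated transcript start, were found in RefSeq (GRCm38.p6) for 33 of the 36 genes, and Slc2a3, Bnip3l and Ndrg1 are named only. HIF-1 binds the core letters ACGTG or GCGTG, which were searched on both strands. The palindrome CACGTG contains the core on both strands and is also the E-box bound by MYC and other factors. At least 1 window held the core in 30 of the 33 genes (90.9%), against 41.5% of the 27025 genes in the promoter table. Counted by window, the shares were 38 of 47 (80.9%) and 38.6%, and the median GC content was 60.4% in the windows of these genes and 52.4% in all windows. A match is only a run of letters and not a bound site. The sequences of 4 genes are shown because the values below turn on them. Pfkm and Ankrd37 had the smallest p-values, Eno3 had the largest difference, and Ldha had a window with 5 matches while its level hardly differed. Each is the most upstream window of its gene, written 5' to 3' on the gene's strand, with the core letters or their reverse complement in capitals. The window of Pfkm lies at chr15:98092339-98092588 (plus strand), that of Ankrd37 at chr8:45999851-46000100 (minus strand), that of Eno3 at chr11:70656926-70657175 (plus strand) and that of Ldha at chr7:46845554-46845803 (plus strand).
Pfkm: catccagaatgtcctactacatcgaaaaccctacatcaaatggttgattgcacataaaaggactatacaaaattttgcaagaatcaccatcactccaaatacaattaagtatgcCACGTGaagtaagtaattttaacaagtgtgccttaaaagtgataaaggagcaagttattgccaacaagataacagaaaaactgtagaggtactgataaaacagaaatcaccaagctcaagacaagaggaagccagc
Ankrd37: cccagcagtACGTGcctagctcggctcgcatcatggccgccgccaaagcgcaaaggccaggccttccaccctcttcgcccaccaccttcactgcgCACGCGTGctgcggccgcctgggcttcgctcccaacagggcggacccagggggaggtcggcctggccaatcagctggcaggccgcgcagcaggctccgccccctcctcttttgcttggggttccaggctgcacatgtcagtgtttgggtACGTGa
Eno3: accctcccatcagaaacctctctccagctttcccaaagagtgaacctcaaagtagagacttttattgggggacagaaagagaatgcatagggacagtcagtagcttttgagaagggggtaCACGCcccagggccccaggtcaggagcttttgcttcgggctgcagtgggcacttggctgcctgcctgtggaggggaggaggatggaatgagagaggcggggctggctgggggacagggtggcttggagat
Ldha: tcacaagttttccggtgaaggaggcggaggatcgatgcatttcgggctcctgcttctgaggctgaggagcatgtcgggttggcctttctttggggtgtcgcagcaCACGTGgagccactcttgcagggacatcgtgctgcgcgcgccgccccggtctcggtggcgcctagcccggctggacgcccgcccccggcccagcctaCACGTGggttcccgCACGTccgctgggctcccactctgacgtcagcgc
Pfkm has 4 windows in the table, of which 3 held the core, and the one shown held it as a single CACGTG. Ankrd37 and Eno3 have 1 window each, with 4 matches and 1 match. Ldha has 2 windows, both with the core.

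Ogt itself read 9.73 and 10.09 on the esiOgt arrays, against 11.51 and 11.38 on the esiGFP arrays, on the log2 scale of all values given here. That is 2.91-fold lower in the esiOgt samples (log2 change -1.54, SE 0.17). No probe set reached significance after adjustment in limma (0% of 34760 under 0.05, smallest adjusted p 0.674), while 7.38% stood at an unadjusted p under 0.05. With 2 arrays per group the smallest p that an exact two-sided permutation test allows for a gene is 1 in 3. Whether the replicates were grown as separate cultures is not stated, so each p-value reflects the scatter of these arrays alone, possibly a technical one. Values are for bulk RNA, in which fewer cells of a type and less RNA per cell cannot be told apart. The 8 stem cell markers lay between 10.23 and 13.45 in the esiOgt samples and between 10.04 and 13.41 in the esiGFP samples, all above the median level of the array. Taken singly, 6 of these 8 were higher (75%, against 51.2% of symbols) and 2 lower in the esiOgt samples. Esrrb (1 of 8, 12.5%) was higher without overlap, against 20% of symbols. It read 11.74 and 11.74, against 11.45 and 11.41 in the esiGFP samples (log2 change 0.31, SE 0.11). Its unadjusted p in limma was 0.0487, and 6.06% of symbols stood under 0.05. The summed level of 8 fibroblast markers, which feeder cells would bring, was 10.12 and 9.86 in the esiOgt samples, against 10.04 and 9.83 in the esiGFP samples. Of these markers 3 lay below the median level of the array. The brightest, Pdgfrb, weighed most in that sum and read 9.36 and 8.89, against 9.12 and 8.59 in the esiGFP samples. Taken singly, 3 of the 8 were higher and 5 lower in the esiOgt samples. Col1a1 and Col3a1 (2 of 8, 25%) were lower without overlap, against 19.4% of symbols. For 8 markers of differentiated derivatives the sum was 9.93 and 9.90, against 10.18 and 10.10 in the esiGFP samples, with 4 markers below the median level. That sum was lower in the esiOgt samples without overlap, and its part in the results was not tested. The separation of the sum rested on Pax6. The sum of the other 7 was 9.63 and 9.76 in the esiOgt samples, against 9.72 and 9.81 in the esiGFP samples, with overlap. Taken singly, 6 of the 8 markers were lower and 2 were higher in the esiOgt samples. In T, Sox1, Foxa2 and Pax6 (4 of 8, 50%) both esiOgt arrays lay below both esiGFP arrays, against 19.4% of symbols. Pax6 was singled out after its values were seen.

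None of the 36 genes passed the test over all probe sets. In limma 2 of them (5.56%) stood at an unadjusted p under 0.05, Pfkm higher and Ankrd37 lower in the esiOgt samples, against 6.06% of all gene symbols. By direction the background was 3.4% of symbols higher and 2.66% lower. The log2 changes ran from -0.53 (Ankrd37) to 0.79 (Eno3), in 20 genes upward and in 16 downward. Their median was 0.02, where the median over all symbols was 0. In 16 genes the change was smaller than 0.1 on the log2 scale. The 2 groups did not overlap in 12 genes (33.3%), against 39.5% of all symbols. In 10 of these (27.8%) both esiOgt arrays lay above both esiGFP arrays, against 20% of symbols. In the other 2 (5.56%), Ankrd37 and P4ha2, they lay below, against 19.4% of symbols. No test was made of these shares. The 95% confidence interval stayed within a 2-fold change for 30 genes and reached it for Hk1, Aldoc, Eno2, Eno3, Ldhb and Ndrg1.

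**Figure D1:**
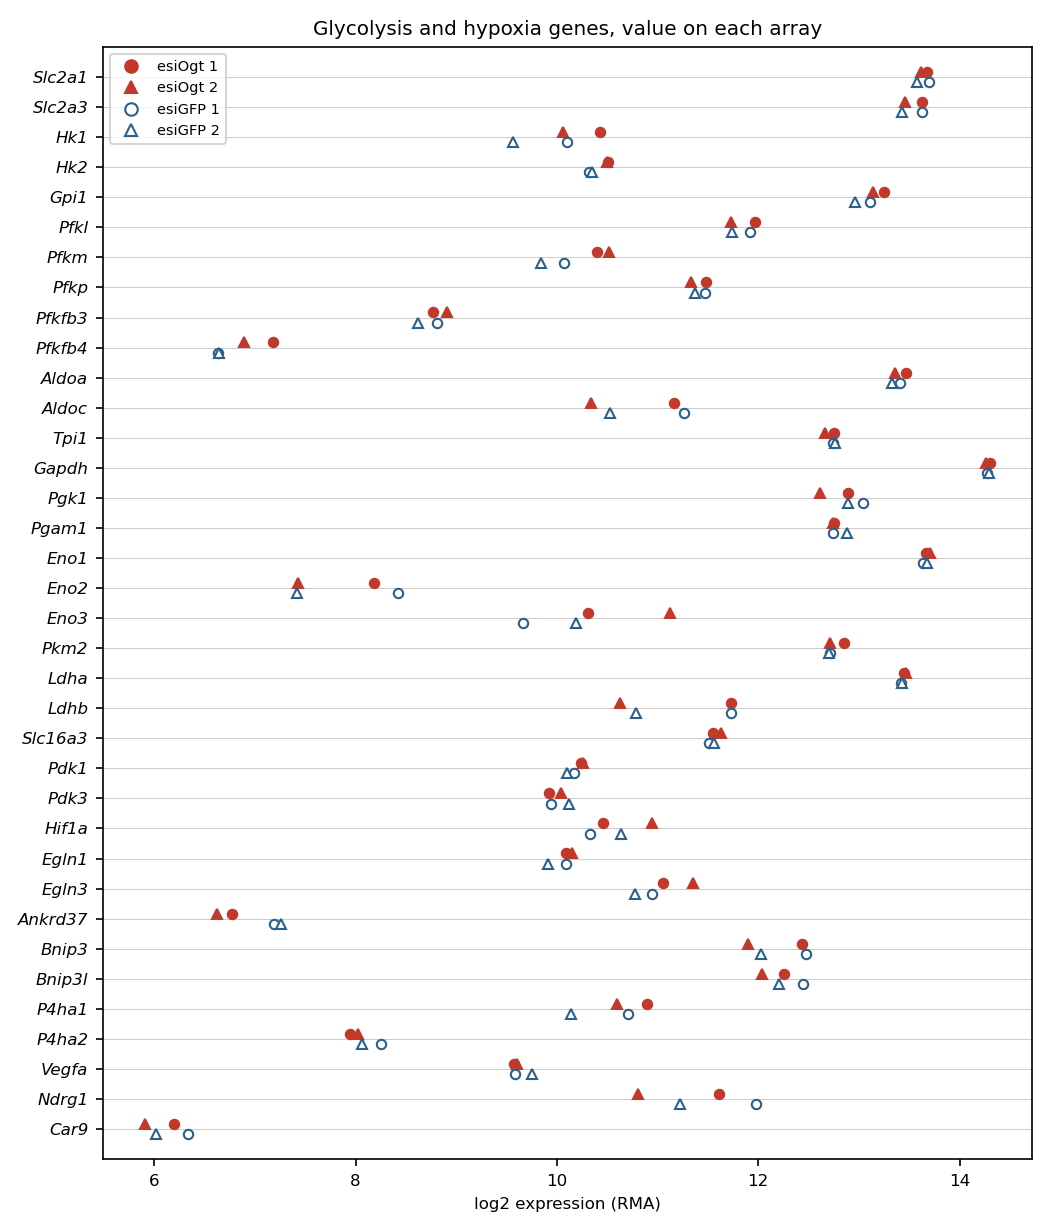
Value of each gene on each array, in log2 expression units (x axis), with genes in pathway order down the page. Filled red symbols are the esiOgt arrays and open blue symbols the esiGFP arrays, with circles for replicate 1 and triangles for replicate 2. Pfkm and Eno3 have both red symbols to the right of both blue ones, and Ankrd37 has both to the left. Positions are not comparable between genes, since probe sets differ in how brightly they hybridise.

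The glucose transporter genes were nearly level. Slc2a1, which encodes the basal transporter GLUT1, read 13.68 and 13.62 in the esiOgt samples, against 13.70 and 13.58 in the esiGFP samples. The high-affinity transporter gene Slc2a3 read 13.63 and 13.46, against 13.63 and 13.43 in the esiGFP samples. Both had a log2 change of 0.01, with an SE of 0.12 and an interval of -0.32 to 0.34 for Slc2a1, and an SE of 0.14 and an interval of -0.37 to 0.40 for Slc2a3, and the groups overlapped in both.

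Hexokinase traps glucose in the cell as its phosphate. Hk1, the widespread form, read 10.43 and 10.06 in the esiOgt samples, against 10.10 and 9.56 in the esiGFP samples, 1.33-fold higher (log2 change 0.41, SE 0.25, adjusted p = 0.73 in limma). Its esiOgt 2 array fell just below its esiGFP 1 array, so the groups overlapped. The change was 0.14 without esiGFP replicate 2, 0.23 without esiOgt replicate 1 and 0.68 without esiGFP replicate 1. Hk2, the inducible form, read 10.51 and 10.50, against 10.32 and 10.35 in the esiGFP samples. This was a small difference of 1.12-fold between groups that did not overlap (log2 change 0.17, SE 0.11). Gpi1, the isomerase of the next step, read 13.25 and 13.14, against 13.11 and 12.96, also 1.12-fold higher without overlap (log2 change 0.16, SE 0.13). Its other probe set gave 0.05.

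Phosphofructokinase commits sugar to glycolysis, and its 3 subunits are encoded by Pfkl (liver type), Pfkm (muscle type) and Pfkp (platelet type). Pfkm read 10.40 and 10.52 in the esiOgt samples, against 10.07 and 9.84 in the esiGFP samples. Both esiOgt arrays lay above both esiGFP arrays, and Pfkm was 1.42-fold higher (log2 change 0.50, SE 0.14, interval 0.12 to 0.89). Its limma p was 0.021 unadjusted and 0.674 adjusted. Of all gene symbols, 4.15% had a larger absolute change. The unadjusted p was 0.121 without esiGFP replicate 2 (log2 change 0.39) and 0.0865 without esiOgt replicate 2 (0.44), both in limma fits on 3 arrays. Pfkl read 11.97 and 11.73, against 11.92 and 11.74 in the esiGFP samples (log2 change 0.02, SE 0.15). For Pfkp the values were 11.48 and 11.33, against 11.47 and 11.37 in the esiGFP samples (log2 change -0.01, SE 0.13). The other subunit genes thus overlapped between groups where Pfkm did not. Within each array, the log2 difference of Pfkm minus Pfkl was -1.58 and -1.21 in the esiOgt samples, against -1.85 and -1.90 in the esiGFP samples, a shift of 0.48. Pfkm minus Pfkp shifted by 0.52, from values of -1.09 and -0.82 in the esiOgt samples and -1.40 and -1.53 in the esiGFP samples. Neither difference overlapped between groups. With one array left out the shift from Pfkl ran from 0.30 (without esiOgt replicate 2) to 0.66 (without esiOgt replicate 1) and that from Pfkp from 0.38 to 0.65. Only the shift has a meaning here, since the levels of different probe sets cannot be set against each other.

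Pfkfb3 and Pfkfb4 encode bifunctional enzymes that make and break the strongest allosteric activator of phosphofructokinase. Pfkfb4, a hypoxia-inducible form, read 7.18 and 6.89 in the esiOgt samples, against 6.63 and 6.64 in the esiGFP samples. It was 1.32-fold higher without overlap (log2 change 0.40, SE 0.15, unadjusted p = 0.0509 and adjusted p = 0.674 in limma). Pfkfb3 read 8.77 and 8.91, against 8.81 and 8.62 in the esiGFP samples, with overlap (log2 change 0.12, SE 0.14).

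Aldolase splits the sugar into a pair of trioses. Aldoa, the main form, read 13.47 and 13.36 in the esiOgt samples, against 13.41 and 13.33 in the esiGFP samples (log2 change 0.04, SE 0.12). Aldoc, the brain form, read 11.16 and 10.34, against 11.26 and 10.53 (log2 change -0.15, SE 0.39). The esiOgt arrays differed by 0.83 and the esiGFP arrays by 0.73, more than the groups did.

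**Figure D2:**
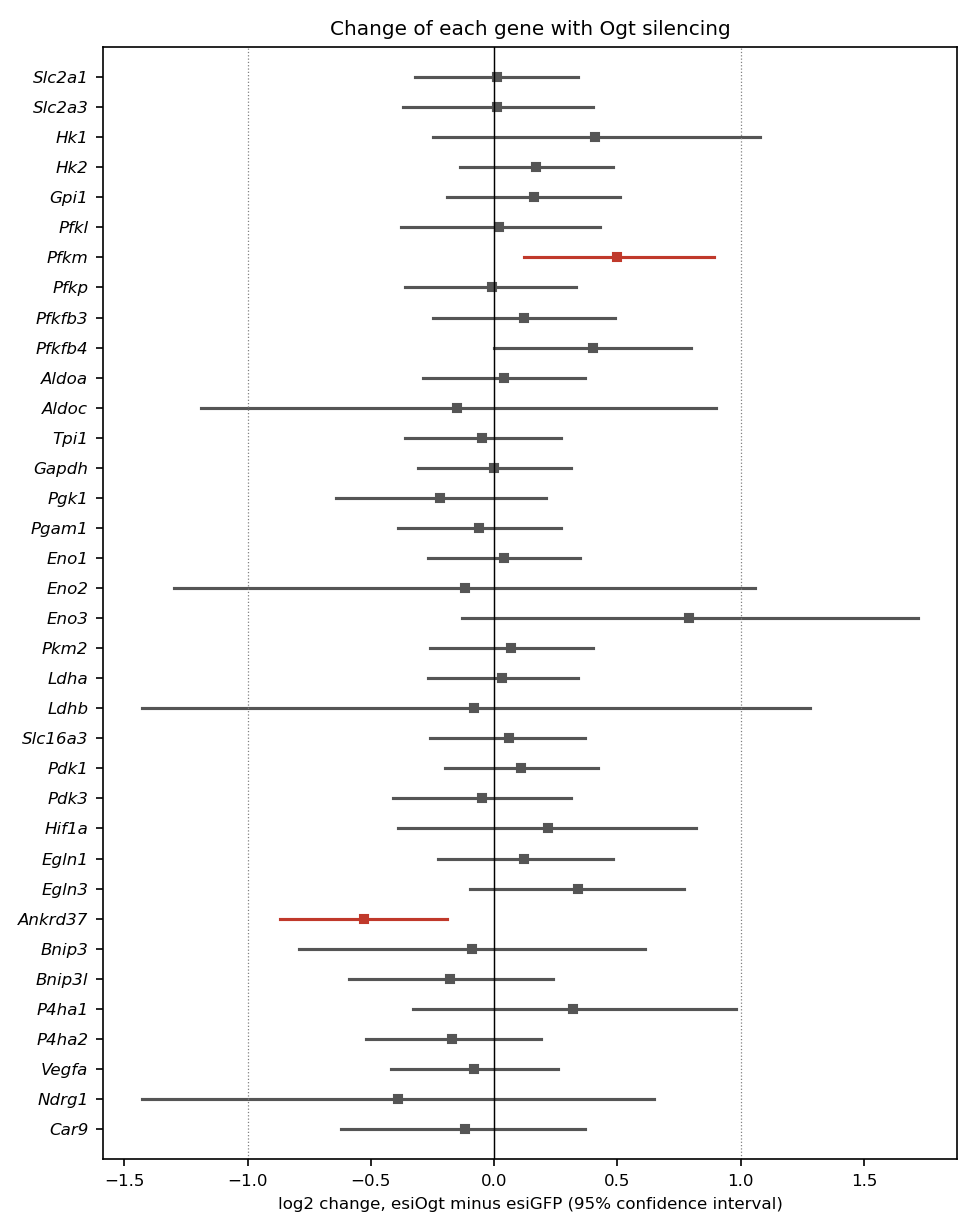
Log2 change of each gene, esiOgt minus esiGFP (x axis), with its 95% confidence interval from limma; red marks an unadjusted p under 0.05 and dotted lines a 2-fold change. The intervals of Pfkm (0.12 to 0.89) and Ankrd37 (-0.87 to -0.19) leave out 0, and the widest are those of Ldhb and Eno2.

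In the later steps of the pathway 3 of 8 genes were higher and 5 were lower, and the median log2 change was -0.02. Tpi1, which interconverts the trioses, had a log2 change of -0.05 (SE 0.12). Pgk1, the first step that makes ATP, read 12.89 and 12.61 in the esiOgt samples, against 13.04 and 12.89 in the esiGFP samples (log2 change -0.22, SE 0.16), and its groups overlapped. Pgam1, the mutase of the following step, stood at -0.06 (SE 0.12). Pkm2, now named Pkm, encodes a pyruvate kinase and read 12.85 and 12.71, against 12.71 and 12.70. Its log2 change of 0.07 (SE 0.12) was small although the groups did not overlap.

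Gapdh, the dehydrogenase gene often taken as a reference in expression work, was named by 14 probe sets, more than any other of the 36 genes. The brightest read 14.30 and 14.26 in the esiOgt samples, against 14.27 and 14.29 in the esiGFP samples, a log2 change that rounds to 0 (SE 0.11, interval -0.31 to 0.31) and stood at 0.01 after centring the arrays on their medians. Of the 14, 13 had a lower and 1 a higher mean in the esiOgt samples, with a median log2 change of -0.15 and a range of -0.56 to 0.03. The 4 probe sets with a mean level below 12 had changes of -0.56 to -0.27, and none of them overlapped between groups. Above that level the other 10 had changes of -0.23 to 0.03, and 3 did not overlap. Groups without overlap thus made up 50% of the 14, against 39.1% of all probe sets of the array. At an unadjusted p under 0.05 in limma stood 2 of the 14 (14.3%), against 7.38% of all probe sets, and probe sets that may read the same transcript are not independent. The lowest change belonged to a probe set that read 10.59 and 10.31 in the esiOgt samples, against 11.04 and 10.99 in the esiGFP samples. The mouse genome holds many processed copies of Gapdh. The brightest probe set is the only one of the 14 annotated to a different transcript record, and all the others share 1 record. The deposited annotation does not say which probe set lies at the gene itself, so the value of Gapdh is uncertain to this extent. Where a gene has 1 probe set, as with Pgam1, its place is not given either. Which probe set lies at the gene is also unknown for Gpi1, Eno1, Ldhb, Bnip3 and Bnip3l, which have several. Their values, and the differences between related genes that use them, rest on the brightest probe set of each gene. The limit of 12 was set after the values were seen.

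**Figure D3:**
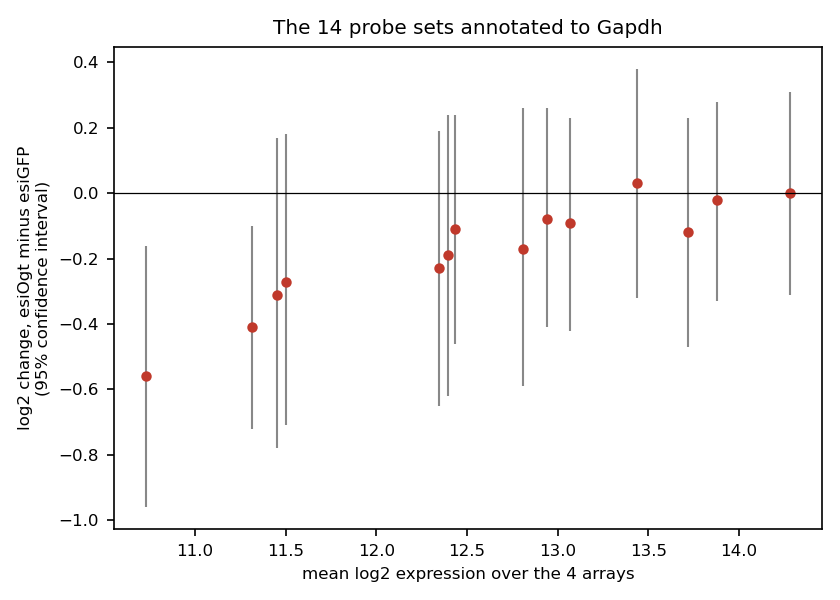
Log2 change, esiOgt minus esiGFP (y axis), of the 14 probe sets named Gapdh against their mean log2 expression over the 4 arrays (x axis), with 95% confidence intervals. The 4 probe sets below a level of 12 have changes of -0.56 to -0.27. The brightest, the only one annotated to a different transcript record, lies at 0.

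Enolase makes phosphoenolpyruvate and has a ubiquitous form (Eno1), a neuronal form (Eno2) and a muscle form (Eno3). Eno3 read 10.31 and 11.12 in the esiOgt samples, against 9.66 and 10.19 in the esiGFP samples. It was 1.73-fold higher (log2 change 0.79, SE 0.34, interval -0.13 to 1.72), the largest difference among the 36 genes and the only one over 1.5-fold, which 2.6% of symbols exceeded. A larger absolute change was seen in 0.893% of all symbols. Its limma p was 0.0772 unadjusted and 0.686 adjusted. The groups did not overlap, but esiOgt 1 exceeded esiGFP 2 by little. The log2 change was 1.20 without esiOgt replicate 1 (unadjusted p = 0.0132 in limma) and 0.39 without esiOgt replicate 2 (0.241), so that its size depended on which array was kept. Eno1 read 13.67 and 13.71, against 13.64 and 13.68 (log2 change 0.04, SE 0.11). Its other probe sets gave lower values, down to -0.10 without overlap between groups, and the mean over all 3 probe sets was -0.02. Eno2 read 8.18 and 7.43, against 8.42 and 7.42 in the esiGFP samples (log2 change -0.12, SE 0.44), with a wide interval of -1.30 to 1.06. Within arrays, Eno3 minus Eno1 was -3.36 and -2.59 in the esiOgt samples, against -3.97 and -3.49 in the esiGFP samples, a shift of 0.75 without overlap. Leaving out esiOgt replicate 2 gave 0.37 and leaving out esiOgt replicate 1 gave 1.14. Eno3 minus Eno2 shifted by 0.91, but its arrays overlapped, and the shift was 0.13 without esiOgt replicate 2, 0.15 without esiGFP replicate 1 and 1.69 without esiOgt replicate 1.

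**Figure D4:**
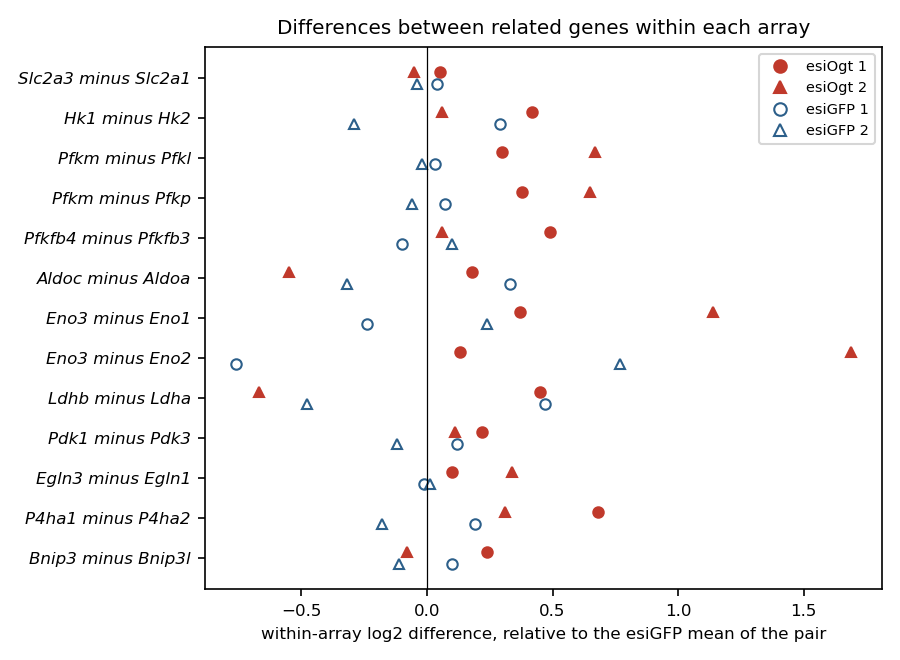
Within-array log2 difference between related enzymes, drawn relative to the esiGFP mean of each pair (x axis). Filled red symbols are the esiOgt arrays and open blue symbols the esiGFP arrays, with circles for replicate 1 and triangles for replicate 2. Red lies to the right of blue without overlap for Pfkm minus Pfkl, Pfkm minus Pfkp, Eno3 minus Eno1, Egln3 minus Egln1 and P4ha1 minus P4ha2.

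Of the 5 genes that decide the fate of pyruvate, none stood at an unadjusted p under 0.05. Ldha, the lactate dehydrogenase form that favours lactate, read 13.45 and 13.47 in the esiOgt samples, against 13.42 and 13.43 in the esiGFP samples (log2 change 0.03, SE 0.11, interval -0.27 to 0.34). The arrays of each group lay within 0.02 of each other, so the groups did not overlap although they differed by only 1.02-fold. Ldhb, the form that favours pyruvate, read 11.73 and 10.63, against 11.73 and 10.79. Its log2 change was -0.08 (SE 0.50) and its interval of -1.43 to 1.28 was the widest of all 36 genes. The lactate exporter gene Slc16a3 stood at 0.06 (SE 0.12). Pdk1 and Pdk3 encode kinases that switch pyruvate dehydrogenase off. Pdk1 read 10.24 and 10.26, against 10.17 and 10.10 in the esiGFP samples (log2 change 0.11, SE 0.12), without overlap. Pdk3 read 9.92 and 10.04, against 9.94 and 10.12, with overlap (log2 change -0.05, SE 0.13).

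Among the regulators of the oxygen response, Hif1a, the oxygen-controlled subunit of HIF-1, read 10.46 and 10.94 in the esiOgt samples, against 10.33 and 10.64 in the esiGFP samples. Its log2 change of 0.22 (SE 0.23) was smaller than the gap between the arrays of either group, and the groups overlapped. HIF-1 is controlled mainly at the level of its protein, which was not measured. Egln3 encodes a HIF prolyl hydroxylase that is itself induced by HIF. It read 11.05 and 11.35, against 10.94 and 10.78 in the esiGFP samples, 1.27-fold higher without overlap (log2 change 0.34, SE 0.16, adjusted p = 0.69 in limma). Egln1, the main oxygen sensor of the family, read 10.09 and 10.15, against 10.09 and 9.91 (log2 change 0.12, SE 0.13). The values of esiOgt 1 and esiGFP 1 were almost the same for it. Egln3 minus Egln1 shifted by 0.22 without overlap, and by 0.10 without esiOgt replicate 2.

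Of the 8 genes placed here as hypoxia targets, 7 had a lower and 1 a higher mean in the esiOgt samples. Among all symbols 10122 of 20723 were lower. The median log2 change of the 8 was -0.15, and 2 did not overlap between groups (25%, against 39.5% of all symbols). The count of 7 depends on the grouping. Pfkfb4 (log2 change 0.40) and Egln3 (0.34), also induced by hypoxia or HIF, were higher and are placed under other roles. Of all 36 genes 20 were higher and 16 lower. Ankrd37, an ankyrin repeat gene known from human cells as a HIF-1 target, read 6.77 and 6.62 in the esiOgt samples, against 7.19 and 7.26 in the esiGFP samples. It was 1.44-fold lower (log2 change -0.53, SE 0.13, interval -0.87 to -0.19). In limma its unadjusted p of 0.0115 was the smallest of the 36 genes and its adjusted p was 0.674, and 1.21% of symbols had a smaller p. The unadjusted p was 0.0506 without esiGFP replicate 1 (log2 change -0.57), 0.0724 without esiGFP replicate 2 (-0.49) and 0.0579 without esiOgt replicate 2 (-0.45). Its direction was the same in each limma fit on 3 arrays. The authors' deposited table lists p = 0.021 for Pfkm (log2 fold change 0.50) and p = 0.0115 for Ankrd37 (-0.53).

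None of the other targets stood at an unadjusted p under 0.05. Bnip3 and Bnip3l encode mitochondrial receptors that mark mitochondria for removal. Bnip3 read 12.43 and 11.90 in the esiOgt samples, against 12.47 and 12.03 in the esiGFP samples (log2 change -0.09, SE 0.26), and its second probe set gave -0.10. Bnip3l read 12.26 and 12.04, against 12.44 and 12.21 (log2 change -0.18, SE 0.16), and its second probe set gave the same change without overlap. P4ha1 and P4ha2 encode catalytic subunits of collagen prolyl hydroxylase, and their changes had opposite signs. P4ha1 read 10.90 and 10.60, against 10.71 and 10.14, the 1 target with a higher mean (log2 change 0.32, SE 0.24). That change was 0.04 without esiGFP replicate 2, 0.17 without esiOgt replicate 1 and 0.60 without esiGFP replicate 1. P4ha2 read 7.95 and 8.02, against 8.25 and 8.06, a log2 change of -0.17 (SE 0.13) without overlap. The within-array difference P4ha1 minus P4ha2 was 2.95 and 2.58 in the esiOgt samples, against 2.46 and 2.09 in the esiGFP samples, a shift of 0.49 (0.30 without esiGFP replicate 2, 0.68 without esiGFP replicate 1). Of all 13 such differences between related genes, the groups did not overlap in 5 (38.5%), against 39.5% of single gene symbols. Of these 5, 3 hold Pfkm or Eno3, so they are not independent of one another or of the values of those genes. The angiogenic factor gene Vegfa read 9.57 and 9.60, against 9.58 and 9.75 in the esiGFP samples (log2 change -0.08, SE 0.13). Ndrg1, a stress-induced gene of differentiating cells, read 11.61 and 10.81, against 11.98 and 11.22 (log2 change -0.39, SE 0.39). Car9, a membrane carbonic anhydrase strongly induced by HIF-1 in tumours, lay below the median level of the array, the only one of the 36 genes to do so. It read 6.20 and 5.91, against 6.34 and 6.02 (log2 change -0.12, SE 0.18).

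For many genes the 2 arrays of a group differed more than the groups did. In 17 of the 36 genes the change between groups was smaller than the gap between arrays in both groups, as it was in 8963 of the 20723 symbols. A gap over 0.5 on the log2 scale in both groups was seen in Aldoc, Eno2, Eno3, Ldhb and Ndrg1, 5 of 36 genes (13.9%), against 4.44% of all symbols. Ldhb differed by 1.11 between the esiOgt arrays and by 0.94 between the esiGFP arrays. For Ndrg1 the esiOgt arrays differed by 0.79 and the esiGFP arrays by 0.76, and for Eno2 the esiOgt arrays differed by 0.75 and the esiGFP arrays by 1. In these 3 genes and in Aldoc the array numbered 1 was the higher in both groups, while in Eno3 the array numbered 2 was higher, by 0.81 in the esiOgt samples and 0.53 in the esiGFP samples. The gap went the same way in both groups for 17 genes with number 1 higher and for 7 with number 2 higher, together 66.7% against 68.2% of all symbols. What the same-numbered samples shared is not given in the labels.

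**Figure D5:**
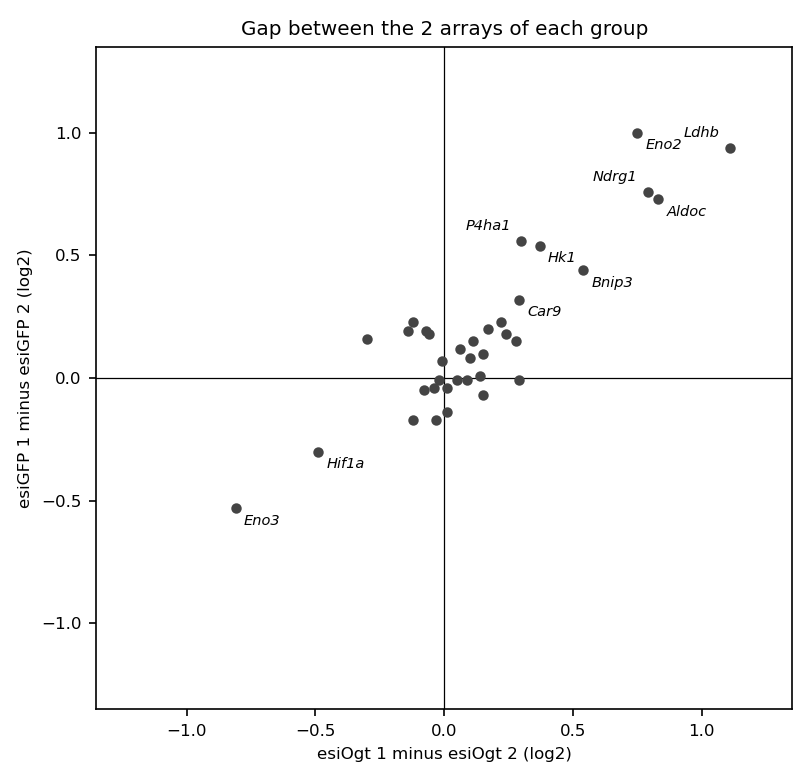
Gap between the 2 arrays of the esiOgt group (x axis) and of the esiGFP group (y axis) for each of the 36 genes, in log2 units, as replicate 1 minus replicate 2. Ldhb, Eno2, Aldoc and Ndrg1 lie at the upper right and Eno3 at the lower left, so the gap had the same sign in both groups.

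Further genes of these pathways were taken from 6 lists with 84 genes measured. In limma 2 of them (2.38%) stood at an unadjusted p under 0.05, both lower in the esiOgt samples, against 6.06% of all symbols, and 0 passed over all probe sets. Pdp1 encodes the phosphatase that switches pyruvate dehydrogenase on. It read 8.24 and 8.08 in the esiOgt samples, against 8.81 and 8.81 in the esiGFP samples, a log2 change of -0.65 (SE 0.13, unadjusted p = 0.00513, adjusted p = 0.674 in limma). Its opponents among the kinases outside the 36 genes, Pdk2 and Pdk4, had similar changes of -0.67 (SE 0.48) and -0.63 (SE 0.38) but overlapped between groups. Taldo1, the transaldolase of the pentose phosphate pathway, read 8.64 and 8.50, against 8.96 and 8.88 (log2 change -0.35, SE 0.13, unadjusted p = 0.0437 in limma). For Taldo1 that p ran from 0.0711 without esiOgt replicate 1 to 0.193 without esiGFP replicate 1, and for Pdp1 it stayed below 0.05 in each fit on 3 arrays.

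By list, the other glycolysis genes had 11 higher and 11 lower of 22 (median log2 change 0.03). Pyruvate dehydrogenase and pyruvate entry had 8 higher and 6 lower of 14 (median 0.04). In the pentose phosphate pathway, which branches off after hexokinase, 7 of 8 genes were higher (87.5%, against 51.2% of symbols), with Taldo1 the exception. The median was 0.11, and none of the higher genes stood at an unadjusted p under 0.05 in limma. The groups did not overlap in 4 of the 8 (50%, against 39.5% of symbols), 3 higher and 1 lower. Rpia, an isomerase of that pathway, read 7.38 and 7.43, against 6.98 and 7.15 in the esiGFP samples (log2 change 0.34, SE 0.13). Regulators of HIF had 6 higher and 4 lower of 10 (median 0.04), and Arnt, the partner of Hif1a, stood at -0.02 (SE 0.22). The other hypoxia targets had 10 higher and 13 lower of 23 (median -0.03), and only 3 of them did not overlap between groups (13%, against 39.5% of symbols). The lipid droplet gene Plin2 read 10.09 and 10.37, against 9.91 and 9.69, with a log2 change of 0.43 (SE 0.17). MYC and related factors had 5 higher and 2 lower of 7 (median 0.13).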

How the data were processed

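RNA of 4 samples, 2 esiOgt and 2 esiGFP, was measured on one-colour arrays from 150 ng per sample. The deposited log2 values were made by the authors with RMA, and their deposited p-values and log2 fold changes with limma, per the submitters' processing notes, which give no version. Neither array type, build nor scan dates were found in the labels, and precision is limited by how few arrays there are.

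All 34760 probe sets entered one linear model (lmFit, eBayes; limma 3.58.1, R 4.3.3) with a term for group, 2 residual degrees of freedom and Benjamini-Hochberg adjustment over all probe sets. This gave the authors' deposited p-values to within 4.84e-08. For gene counts the brightest probe set of each of 20723 symbols was used. The fit was tested on simulated data in which the noise of each array was drawn independently. That test cannot speak to scatter shared by same-numbered arrays. The 36 genes and the further lists were chosen with earlier results of these data known, so no test of a list was made. All 36 are named, with array values for those at an unadjusted p under 0.05, the 4 largest changes per direction, isoenzyme families, Gapdh, Pgk1, Hif1a and Vegfa. The values of other genes on the arrays are added where a group gap is described, and these were chosen after the values were seen. Of the further lists, genes at an unadjusted p under 0.05 are named by the same rule, and Pdk2, Pdk4, Rpia, Arnt and Plin2 after their values were seen. Alternatives were other scalings, filters, variance models, the replicate number as a block, the mean over probe sets and leaving out each array.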

Additional observations from a re-analysis of the deposited data

How the results depend on the processing

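With 2 arrays per group, 1 array can decide a value. Ankrd37, Pfkfb4 and Car9 also lie near the median level of the arrays. In each alternative fitted over probe sets on all 4 arrays, 0 probe sets passed an adjusted p of 0.05. In the main fit 2565 probe sets stood at an unadjusted p under 0.05. The 2 genes at that level among the 36 became 0 at an unadjusted p under 0.01 and 1 at 1.5-fold or more, and 0 to 3 when one array was left out (0 without esiGFP replicate 2). Among all symbols, 1.02% stood at an unadjusted p under 0.01 and 2.6% at 1.5-fold or more. Probe sets at or above the median level gave 3 of 35 genes at an unadjusted p under 0.05, against 8.39% of symbols. These were Pfkm, Pfkfb4 and Ankrd37. The same 3 stood there with probe sets naming 1 gene (7.96% of symbols) and with the mean over probe sets (7.9%). Fitting the replicate block, although no label pairs the samples, gave 6 genes (Hk1, Pfkm, Pfkfb4, Eno3, Ankrd37 and Ndrg1) against 13.4% of symbols. That block also gave 12 of the 84 further genes. Across probe sets the deviations of same-numbered arrays correlated at 0.479, and 2 pairs cannot settle a pairing. The 2 further genes became 5 with probe sets naming 1 gene, 5 with the mean over probe sets, and 1 to 7 when one array was left out. The share of all symbols at an unadjusted p under 0.05 rose as well, from 6.06% in the main fit. It was 7.96% with probe sets naming 1 gene and 7.9% with the mean over probe sets. That share also moved when one array was left out, being lowest without esiGFP replicate 2 and highest without esiOgt replicate 1. The counts among the 36 genes and among the 84 further genes were highest without esiOgt replicate 1 too. Their swing with one array left out was thus not confined to these genes. The count of genes without overlap was 12 after centring, 12 after quantile normalization and 13 with the mean over probe sets. In the main fit it was 12 (33.3%, against 39.5% of all symbols). The share of all symbols under the other settings is not given, so these counts have no background. The alternatives for that count, for the differences between related genes and for the further genes were chosen after seeing the data. The median change of the 36 genes stayed between -0.02 and 0.08.

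Of 431 recomputed changes of the 36 genes, 400 kept their direction, and 18 genes kept it in all alternatives, Pfkm, Pfkfb4, Eno3 and Ankrd37 among them. Gapdh stood at 0.01 after median centring, Tpi1 at 0 and Pgam1 at 0.01 after quantile normalization, and Eno1 at -0.02 as the mean over probe sets. With one array left out, the change ran from -0.05 to 0.07 for Slc2a1, -0.09 to 0.11 for Slc2a3, -0.10 to 0.14 for Pfkl, -0.09 to 0.06 for Pfkp, -0.01 to 0.09 for Aldoa, -0.56 to 0.27 for Aldoc, -0.02 to 0.02 for Gapdh, -0.13 to 0.01 for Pgam1, -0.62 to 0.38 for Eno2, -0.63 to 0.48 for Ldhb, -0.14 to 0.03 for Pdk3, -0.03 to 0.46 for Hif1a, -0.36 to 0.18 for Bnip3, -0.16 to 0.01 for Vegfa, -0.79 to 0.01 for Ndrg1 and -0.28 to 0.04 for Car9. Among genes that kept their sign, the change ran from 0.14 to 0.68 for Hk1, 0.08 to 0.24 for Gpi1, 0.03 to 0.22 for Pfkfb3, 0.25 to 0.55 for Pfkfb4, -0.36 to -0.07 for Pgk1, 0.03 to 0.22 for Egln1, 0.19 to 0.49 for Egln3, -0.29 to -0.06 for Bnip3l, 0.04 to 0.60 for P4ha1 and -0.27 to -0.07 for P4ha2. Such fits compare groups with unequal replicate numbers, and the cause of each such move was not tested.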
